A study of Mus musculus with 6 samples.

Results

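Marker genes of blood vessels, macrophages and nerve-associated glia were followed in molars of newborn mice carrying an Ascl5 variant. The set holds 35 genes, taken from a fixed list of symbols, out of 24972 genes in each deposited table. It has 12 endothelial genes, 7 genes of mural cells, 11 of myeloid cells and 5 of Schwann cells, and all 35 were present in both tables. Most were close to or below the level of detection. Across the 6 libraries, 9 of the 35 were listed at 0 in every library and 3 were above 0 in every library, namely Kdr, Tagln and S100b. No marker passed the test in either mutant genotype. S100b was the only one high enough for the fit across all genes (a mean of at least 1000), and its level did not pass in either comparison.

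RNA came from maxillary first molars at postnatal day 1, from mice without the variant (Ascl5WT/WT), with 1 variant allele (Ascl5Mut/WT) and with 2 (Ascl5Mut/Mut), at 2 libraries per genotype. Ascl5 is a gene for a transcription factor of the basic helix-loop-helix class. The labels give no strain, sex or nature of the variant, and they do not give the number of mice or teeth behind a sample, so p-values measure only the spread between these samples, which may be technical. Each mutant genotype was compared with the same 2 Ascl5WT/WT libraries in a table of its own, and the tables were normalized separately. The comparisons therefore share their controls, and no test was run between the 2 mutant genotypes.

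Vessels of the dental pulp are lined by endothelial cells and wrapped by mural cells, a class that takes in contractile smooth muscle and pericytes. Macrophages live in the pulp and in the follicle around the tooth, and osteoclasts arise from the same myeloid lineage. Schwann cells accompany the sensory axons that grow into the tooth, and they share the factor SOX10 with melanocytes as offspring of the neural crest. In whole-tooth RNA, fewer cells of a type and less RNA per cell cannot be told apart.

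Values are the authors' normalized counts. Low values lay near multiples of a step that appears to be the worth of 1 read, from 108.7 to 139.8 normalized counts depending on the library. Dividing each library's total by its step gave an estimated 90476 to 117280 counted reads per library, and the limit set by a count of 0 (3 reads) was 326 to 419 normalized counts. These depths and limits cover counting error only. Of all genes, 66.6% to 71.0% per library were at 0. Of the 35 markers, 12 and 11 were above 0 in the Ascl5WT/WT libraries (34.3% and 31.4%, against 32.8% and 31.3% of all genes). There were 16 in each Ascl5Mut/Mut library (45.7%, against 33.2% and 29.0% of all genes), and 13 and 17 in Ascl5Mut/WT (37.1% and 48.6%, against 32.5% and 33.4%). The share at 0 in all 6 libraries was 25.7% of the markers and 44.2% of all genes named in both tables. The labelled tissue was checked against its own markers. Summed dental mesenchyme genes had 51707 and 55873 normalized counts in Ascl5WT/WT against 3189 and 2355 in Ascl5Mut/Mut, and 52719 and 58202 against 8855 and 3596 in Ascl5Mut/WT. The summed level was thus lower in all 4 mutant libraries. Dlx1 alone made up most of the control sums, with 47224 and 53336 in the Ascl5Mut/Mut table against 2348 and 556. In the Ascl5Mut/WT table Dlx1 had 48116 and 55586 against 4658 and 2064. The lower sums were therefore mostly a lower Dlx1, and the sums without Dlx1 were not compared. Of the 8 genes, 2 lay below both controls in each Ascl5Mut/Mut library and 0 above. Over all genes above 0 in that table, 13.5% lay below and 13.3% above. The homeobox gene Dlx1, called lower by limma in both comparisons, had a log2 fold change of -5.28 in Ascl5Mut/Mut (adjusted p = 0.00405) and -4.00 in Ascl5Mut/WT (adjusted p = 1.41e-05). That call was lost without Ascl5Mut/Mut replicate 1 or without Ascl5Mut/WT replicate 2, and its reads cannot be told apart from those of the antisense gene Dlx1as where they overlap. Summed dental epithelium genes had 40704 and 30962 against 8516 and 29512 in Ascl5Mut/Mut, both below the controls, and 41418 and 32507 against 21276 and 56648 in Ascl5Mut/WT, on either side of them. The ameloblast genes Amelx, Ambn, Enam and Mmp20 together had 0 to 1015 per library.

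**Figure D1:**
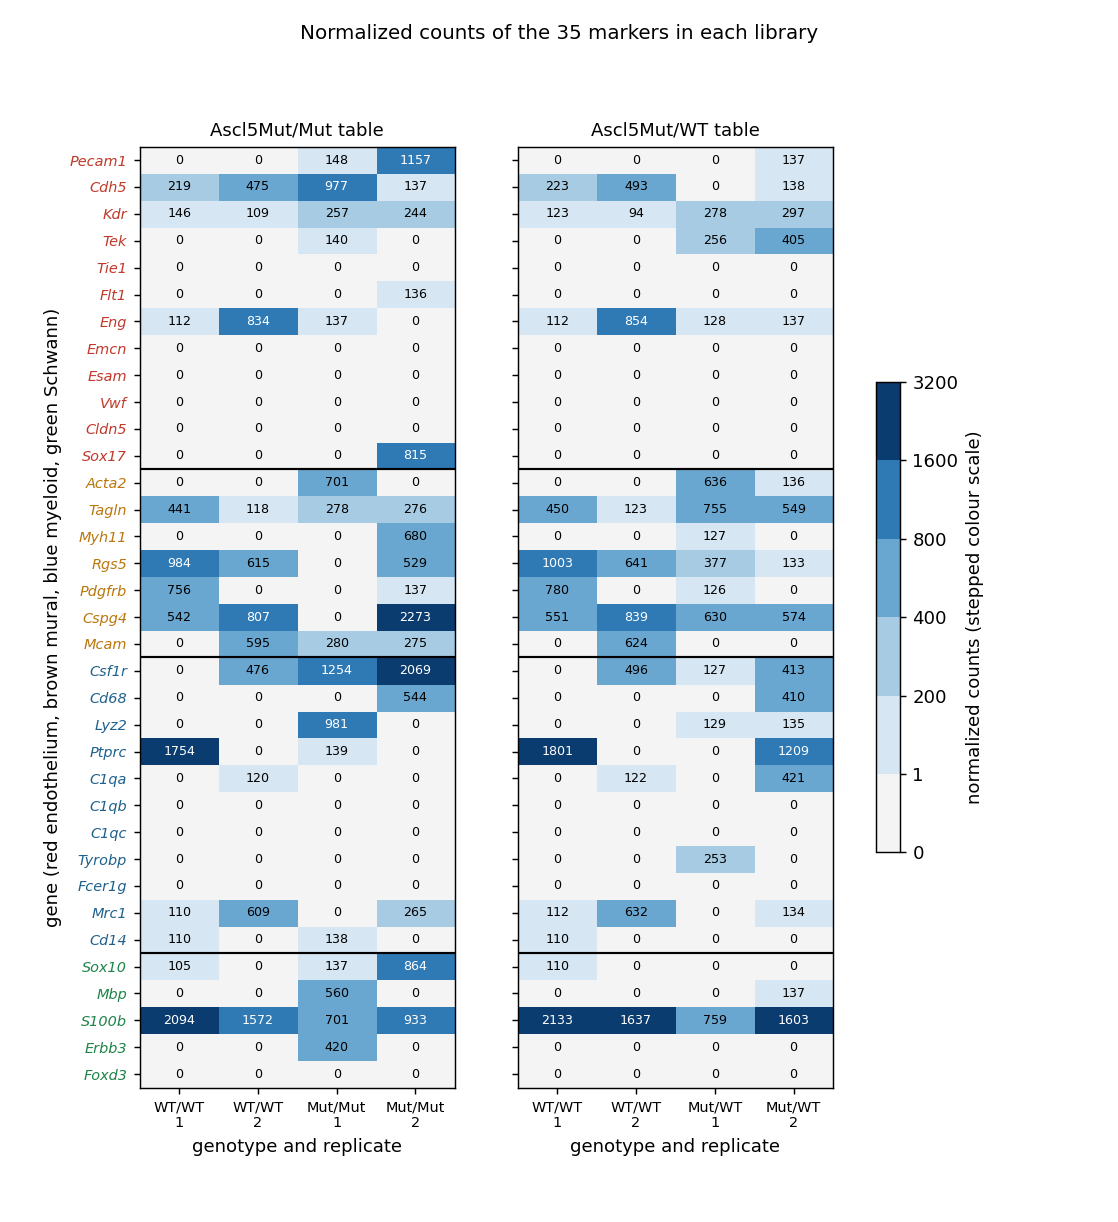
Normalized counts of the 35 marker genes (rows, grouped by cell type) in the 4 libraries of each table (columns), with a stepped colour scale; each number is one library's value. Most cells read 0, and S100b is the one gene above 700 in every library.

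Summed by cell type, the endothelial and myeloid markers stood above both controls in each Ascl5Mut/Mut library, and the mural and Schwann sums overlapped between these groups. In Ascl5Mut/WT all 4 sums overlapped with Ascl5WT/WT. No test is given for a sum over chosen genes, and with 2 libraries a group an exact permutation test could not have given a two-sided p below 0.33.

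Keratins and other genes of oral mucosa, a tissue next to the tooth, were far higher in the same mutant libraries. Their sum over 7 genes was 109 and 306 in Ascl5WT/WT against 18973 and 121230 in Ascl5Mut/Mut, and 111 and 319 against 13437 and 45083 in Ascl5Mut/WT. Of these, limma called 3 of 5 tested genes higher in Ascl5Mut/Mut and 2 of 4 in Ascl5Mut/WT, and 0 in both with a pseudocount of 1 or without either mutant library. They were the keratins Krt4 and Krt13 in both, and Rptn, an epidermal matrix protein, in Ascl5Mut/Mut, all named after their values were seen. Over all genes, 0.856% and 0.549% were called. Control means of the tested mucosal genes were 0 to 159, so they were tested only because of their mutant values, which favours higher calls. With a minimum mean of 300, Krt4, Rptn and Krt13 did not pass in Ascl5Mut/Mut (limma adjusted p = 0.054, 0.055 and 0.088). Krt4 and Krt13 still passed in Ascl5Mut/WT. The part of mucosal RNA, and of the lower dental mesenchyme sum, in the marker sums was not tested.

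The endothelial sum was 477 and 1418 normalized counts in Ascl5WT/WT and 1659 and 2489 in Ascl5Mut/Mut, a ratio of group means of 2.19. On the log2 scale that is 1.13, which became 0.55 without Ascl5WT/WT replicate 1 and 2.12 without Ascl5WT/WT replicate 2. The mean log2 value over the 12 genes differed by 0.36. In estimated reads these were 4.38 and 11.8 against 11.9 and 18.3. The 95% exact Poisson intervals, taken on the nearest whole read, were 1.09 to 10.2 and 6.20 to 21.0 in Ascl5WT/WT, and 6.20 to 21.0 and 10.7 to 28.4 in Ascl5Mut/Mut, so those of Ascl5WT/WT replicate 2 and Ascl5Mut/Mut replicate 1 were the same. In the Ascl5Mut/WT table the sum was 457 and 1441 in Ascl5WT/WT and 662 and 1114 in Ascl5Mut/WT, a ratio of 0.94, with both Ascl5Mut/WT libraries between the controls.

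The mural sum was 2723 and 2135 in Ascl5WT/WT against 1259 and 4171 in Ascl5Mut/Mut, so the 2 Ascl5Mut/Mut libraries lay on either side of the controls. The Ascl5Mut/WT libraries had 2651 and 1393 against 2783 and 2227. These are 9.01 to 30.7 estimated reads per library over both tables.

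The myeloid sum was 1974 and 1205 in Ascl5WT/WT against 2511 and 2878 in Ascl5Mut/Mut, a ratio of 1.70. Without Csf1r, its highest member there, the direction turned (log2 ratio -0.39), so the higher myeloid sum rested on that gene. In Ascl5Mut/WT the sum was 509 and 2722 against 2023 and 1250, with 1 library below and 1 above the controls. That spread within one genotype exceeded the difference between genotypes.

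The Schwann sum was 2199 and 1572 in Ascl5WT/WT against 1818 and 1797 in Ascl5Mut/Mut, and 2243 and 1637 against 759 and 1740 in Ascl5Mut/WT. S100b made up 92.1% to 100% of it in the Ascl5WT/WT and Ascl5Mut/WT libraries, and 38.5% and 51.9% in Ascl5Mut/Mut. Without S100b the sum was left with genes of a few reads, and the log2 ratio moved from -0.06 to 4.24 in Ascl5Mut/Mut.

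**Figure D2:**
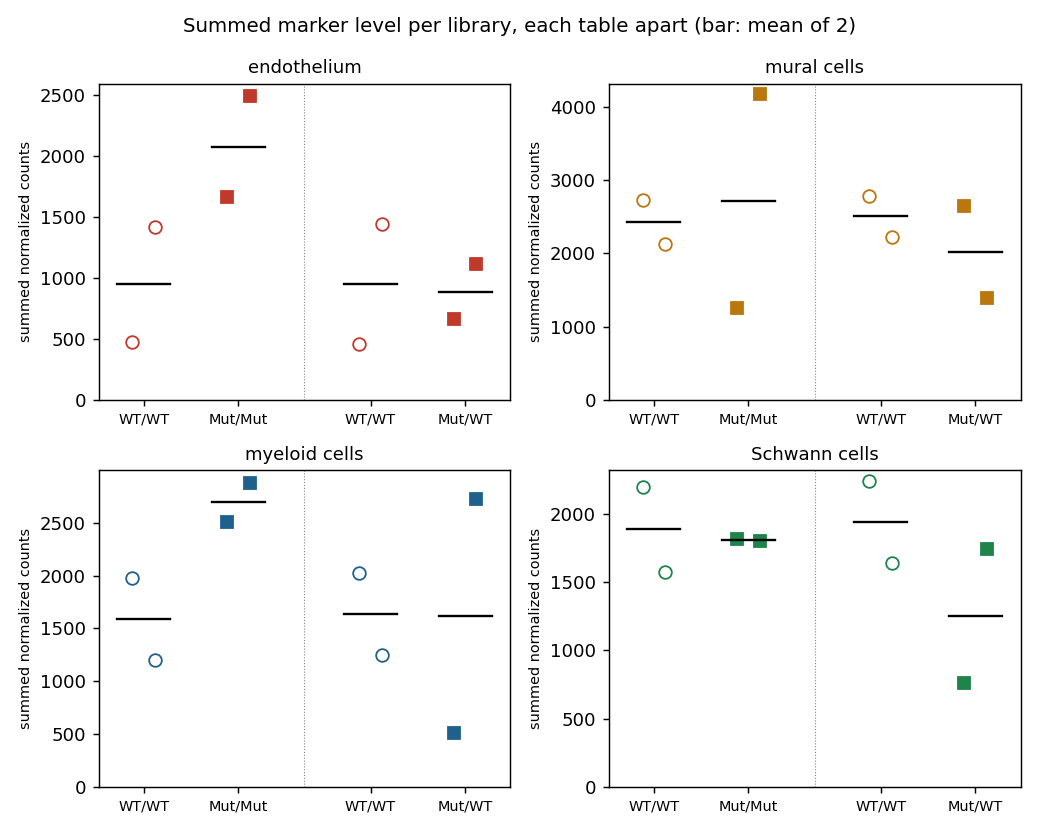
Summed normalized counts (y axis, from 0) of the markers of each cell type, one point per library, for each table's Ascl5WT/WT (open) and mutant (filled) libraries, with a bar at the mean of 2. Endothelial and myeloid points of Ascl5Mut/Mut lie above their controls (ratios 2.19 and 1.70), and the other groups overlap.

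Among the endothelial genes, receptors for vessel growth factors gave 0 to 3 reads per library. Kdr (VEGF receptor 2; chromosome 5, 75932827 to 75978458, minus strand, GRCm38) had 146 and 109 normalized counts in Ascl5WT/WT against 257 and 244 in Ascl5Mut/Mut. In the other table it had 123 and 94 against 278 and 297 in Ascl5Mut/WT. Both mutant groups stood above the controls, on about 1 estimated read per control library and about 2 per mutant library. Its Ascl5WT/WT values also differed between the tables by ratios of 0.844 and 0.863, where the median ratio over all genes was 1.018 and 1.041, so its level in one and the same library depended on the table.

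Tek, the receptor for angiopoietins, was at 0 in each control library, had 140 and 0 in Ascl5Mut/Mut, and 256 and 405 in Ascl5Mut/WT. Flt1, VEGF receptor 1, had 136 in Ascl5Mut/Mut replicate 2 and was at 0 in the other 5 libraries. Tie1, the orphan partner of the angiopoietin receptor, was at 0 in all 6. These receptors were not measurable at this depth.

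Junction and surface genes of endothelium varied as much within a genotype as between genotypes. Cdh5, the cadherin of endothelial junctions, had 219 and 475 in Ascl5WT/WT against 977 and 137 in Ascl5Mut/Mut, so the groups overlapped. In Ascl5Mut/WT it had 0 and 138, below both controls (223 and 493), which is 0 and 1 reads against 2 and 4. Pecam1, the adhesion molecule CD31, was at 0 in both Ascl5WT/WT libraries. It had 148 and 1157 in Ascl5Mut/Mut and 0 and 137 in Ascl5Mut/WT, with one Ascl5Mut/Mut library holding most of its reads.

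Eng, a co-receptor for TGF-beta, had 112 and 834 in Ascl5WT/WT, 137 and 0 in Ascl5Mut/Mut, and 128 and 137 in Ascl5Mut/WT. It was high in a single control library, and its exons overlap those of Fpgs on the opposite strand by 61 bases. Sox17, a transcription factor of arterial endothelium, had 815 in Ascl5Mut/Mut replicate 2 and was at 0 in the other 5. Its exons overlap the model Gm37587 on the opposite strand by 804 bases.

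The tight-junction gene Cldn5, the vascular sialomucin Emcn, the adhesion molecule Esam and the clotting factor gene Vwf were at 0 in all 6 libraries, as Tie1 was. So 5 of the 12 endothelial markers gave no reads, including Cldn5 and Vwf, which are widely used to define the cell type.

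A second list of 24 endothelial genes, none of them in the first, had a higher sum in Ascl5Mut/Mut. This sum was 3511 and 2050 in Ascl5WT/WT against 7860 and 4388, a ratio of 2.20. Of the 24, 6 were at 0 in all 4 libraries, 3 lay above both controls in each Ascl5Mut/Mut library and 1 below. Over all genes above 0 in that table, 13.3% lay above and 13.5% below. In Ascl5Mut/WT the sum overlapped with the controls (3569 and 2136 against 2274 and 3182). Only Mmrn2, an endothelial matrix protein, was high enough for the fit across all genes in Ascl5Mut/Mut. The controls had 767 and 355 against 1937 and 1249 (log2 fold change 1.37, SE 1.01, limma adjusted p = 0.622). Its control mean of 561 was under the minimum, and it was tested only because of its mutant mean of 1593. This fold change therefore cannot show a shift of the list.

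Of 19 vessel growth factors and receptors, 3 were high enough for the fit across all genes in each comparison and 0 passed it. The 3 were Angpt2, Vegfa and Nrp2 in Ascl5Mut/Mut, and Angpt2, Vegfa and Hif1a in Ascl5Mut/WT. The median log2 fold change of the 3 was 1.03 in Ascl5Mut/Mut and 0.60 in Ascl5Mut/WT, against -0.02 and 0.04 over all genes tested. Nrp2 and Hif1a had control means under the minimum (770 and 766) and were tested only because of their higher mutant means (3541 and 1257). These medians therefore cannot show a shift of the whole list. Angpt2, the angiopoietin that loosens vessels, was the best measured gene of these lists. The controls had 7977 and 7638 against 13970 and 18428 in Ascl5Mut/Mut (log2 fold change 1.03, SE 0.37, limma adjusted p = 0.354, unadjusted p = 0.0191). In Ascl5Mut/WT it had 12635 and 11825 against 8127 and 7960 (log2 fold change 0.60, SE 0.38, limma adjusted p = 0.634). All 4 mutant libraries lay above the controls, and neither difference passed over all genes.

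Nrp2, a co-receptor for VEGF and semaphorins, had 109 and 1432 in Ascl5WT/WT against 4084 and 2998 in Ascl5Mut/Mut (log2 fold change 2.60, SE 0.96, limma adjusted p = 0.354). Hif1a, the oxygen-regulated transcription factor, had 1531 and 0 in Ascl5WT/WT against 1585 and 929 in Ascl5Mut/WT (limma adjusted p = 0.772). Vegfa, the main growth factor of vessels, was lower on average in both mutant genotypes, did not pass in either, and was named after its values were seen. Values were 2952 and 4351 in the controls against 3729 and 1755 in Ascl5Mut/Mut (log2 fold change -0.46, SE 0.58, limma adjusted p = 0.778). In the other table it had 3007 and 4533 against 2224 and 3001 in Ascl5Mut/WT (log2 fold change -0.50, SE 0.52, limma adjusted p = 0.777).

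Among the mural genes, Rgs5, a regulator of G-protein signalling typical of pericytes, was lower than in the controls in both mutant genotypes (chromosome 1, 169655501 to 169695813, plus strand, GRCm38). The controls had 984 and 615 against 0 and 529 in Ascl5Mut/Mut. In the other table it had 1003 and 641 against 377 and 133 in Ascl5Mut/WT. The groups did not overlap, with 9.05 and 5.13 estimated reads in the controls of the first table and 0 to 3.89 in the mutant libraries of both. Its mean was under the minimum of 1000. With the minimum lowered to 300, limma gave an adjusted p of 0.688 for Ascl5Mut/Mut and 0.780 for Ascl5Mut/WT.

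Values of the pericyte surface genes overlapped between each mutant genotype and the controls. Pdgfrb, the receptor that holds pericytes to vessels, had 756 and 0 in Ascl5WT/WT, 0 and 137 in Ascl5Mut/Mut and 126 and 0 in Ascl5Mut/WT. Cspg4, the proteoglycan NG2, had 542 and 807 in Ascl5WT/WT against 0 and 2273 in Ascl5Mut/Mut, with the lowest and the highest value in the same genotype. The Ascl5Mut/WT libraries had 630 and 574 against 551 and 839. Mcam, the adhesion molecule CD146, had 0 and 595 in Ascl5WT/WT and 280 and 275 in Ascl5Mut/Mut, and was at 0 in both Ascl5Mut/WT libraries. The antisense gene Gm10687 overlaps its exons by 17 bases.

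Contractile genes were sparse. Acta2, smooth muscle actin, was at 0 in both Ascl5WT/WT libraries. It had 701 and 0 in Ascl5Mut/Mut and 636 and 136 in Ascl5Mut/WT. Tagln, an actin-binding protein of smooth muscle, had 441 and 118 in Ascl5WT/WT against 278 and 276 in Ascl5Mut/Mut, and 450 and 123 against 755 and 549 in Ascl5Mut/WT. On the opposite strand, its exons overlap the model Gm48529 by 1241 bases and Pcsk7 by 108. Myh11, the smooth muscle myosin, had 680 in Ascl5Mut/Mut replicate 2, 127 in Ascl5Mut/WT replicate 1 and 0 elsewhere.

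Skeletal muscle genes, which cells around a dissected molar would bring, varied widely between the same libraries. Their sum over 8 genes was 543 and 12215 in Ascl5WT/WT, 94158 and 4408 in Ascl5Mut/Mut, and 27688 and 6933 in Ascl5Mut/WT, and the 2 libraries with the highest sums also had the highest Acta2. The part of muscle in the Acta2 values was not tested. A second list of 15 mural genes overlapped between groups, with 3815 and 2503 in Ascl5WT/WT against 6533 and 3332 in Ascl5Mut/Mut, and 3834 and 2593 against 3505 and 2515 in Ascl5Mut/WT. Its Mylk, the myosin light chain kinase, had a log2 fold change of 0.37 in Ascl5Mut/Mut (SE 0.96, limma adjusted p = 0.914). The control mean of Mylk, 897, was under the minimum, and it was tested only because of its mutant mean of 1180.

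Among the myeloid genes, Csf1r, the receptor for the growth factors that sustain macrophages and osteoclast precursors, stood out in Ascl5Mut/Mut. Its values were 0 and 476 in the controls against 1254 and 2069 in Ascl5Mut/Mut, about 0 and 4 reads against 9 and 15. Its Ascl5Mut/WT values were 127 and 413, against 0 and 496 in the controls of that table. The Ascl5Mut/Mut libraries lay above both controls, and the Ascl5Mut/WT libraries lay between them. With a minimum mean of 300, its log2 fold change in Ascl5Mut/Mut was 2.70 (SE 1.09, limma unadjusted p = 0.0349). It did not pass over all genes (limma adjusted p = 0.588). Its control mean of 238 was under that minimum, and it was tested only because of its mutant mean of 1661, which favours a positive change.

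The exons of Csf1r overlap those of Hmgxb3, a gene on the opposite strand of chromosome 18, by 873 bases. Hmgxb3 had 325 and 235 in Ascl5WT/WT against 1674 and 2802 in Ascl5Mut/Mut (log2 fold change 2.53, SE 1.09, limma adjusted p = 0.43). In the other table it had 332 and 246 against 1008 and 558 in Ascl5Mut/WT. Both genes were higher in both Ascl5Mut/Mut libraries. The strand setting used for counting is not given in the sources used here, so reads of the 2 genes cannot be told apart where they overlap.

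**Figure D3:**
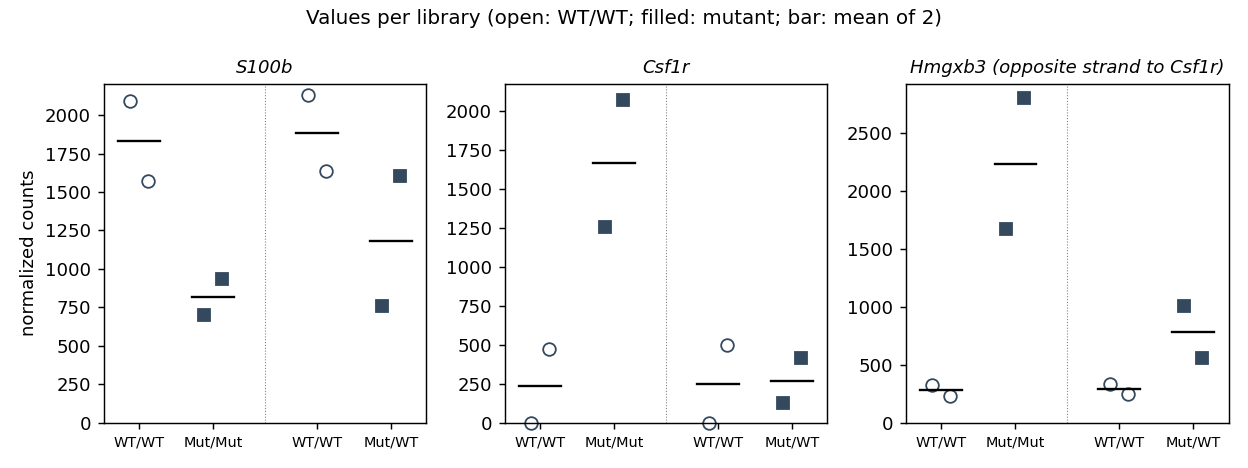
Normalized counts (y axis, from 0) of S100b, Csf1r and Hmgxb3, one point per library, for each table's Ascl5WT/WT (open) and mutant (filled) libraries, with a bar at the mean of 2. S100b points of mutant libraries lie below the controls, and Csf1r and its opposite-strand neighbour Hmgxb3 lie above them in Ascl5Mut/Mut.

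Values of the other macrophage genes overlapped between Ascl5Mut/Mut and the controls. Ptprc, the leukocyte surface phosphatase CD45, had 1754 and 0 in Ascl5WT/WT, 139 and 0 in Ascl5Mut/Mut, and 0 and 1209 in Ascl5Mut/WT, so it came from 1 control library and 1 mutant library. Lyz2, the lysozyme of macrophages and neutrophils, was at 0 in Ascl5WT/WT. It had 981 and 0 in Ascl5Mut/Mut and 129 and 135 in Ascl5Mut/WT. Cd68, a lysosomal protein of macrophages, had 544 in Ascl5Mut/Mut replicate 2, 410 in Ascl5Mut/WT replicate 2 and 0 in the other 4 libraries. Mrc1, the mannose receptor of tissue macrophages, had 110 and 609 in Ascl5WT/WT, 0 and 265 in Ascl5Mut/Mut and 0 and 134 in Ascl5Mut/WT.

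Complement and signalling adaptor genes were at or near 0. C1qa, which encodes a chain of complement C1q, had 120 in Ascl5WT/WT replicate 2 and 421 in Ascl5Mut/WT replicate 2, and C1qb and C1qc, for the other chains, were at 0 in all 6 libraries. Tyrobp, an adaptor of myeloid receptors, had 253 in Ascl5Mut/WT replicate 1 alone. Fcer1g, the gamma chain of Fc receptors, was at 0 in all 6. Cd14, a co-receptor for bacterial lipopolysaccharide, had 110 in Ascl5WT/WT replicate 1 and 138 in Ascl5Mut/Mut replicate 1, and 0 elsewhere.

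A second list of 21 myeloid genes includes genes of growth factors that act on myeloid cells. Its sum was 1764 and 2647 in Ascl5WT/WT against 4374 and 5206 in Ascl5Mut/Mut, a ratio of 2.17. At 0 in all 4 libraries were 7 of them, among these Aif1, Spi1 and Itgam. Above both controls in each Ascl5Mut/Mut library were 2 genes, with 0 below, where 13.3% and 13.5% of all genes above 0 were. The list's Ascl5Mut/WT sums overlapped with the controls (1819 and 2756 against 3149 and 1870). Osteoclast genes, which come from the same lineage, stood higher by a far larger factor. Their sum over 9 genes was 430 and 359 in Ascl5WT/WT against 17323 and 11955 in Ascl5Mut/Mut, and 441 and 380 against 8334 and 2169 in Ascl5Mut/WT. Of the 9, Oscar, Dcstamp, Ocstamp and Calcr were at 0 in all 6 libraries. The part of osteoclasts in the Csf1r values was not tested. Neutrophil genes summed to 0 in both Ascl5WT/WT libraries, 701 and 0 in Ascl5Mut/Mut and 1773 and 0 in Ascl5Mut/WT.

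Among the Schwann cell genes, S100b, a calcium-binding protein of glia that cartilage cells also make, had the highest level per length of all 35 markers (chromosome 10, 76253853 to 76261159, plus strand, GRCm38). Per kilobase of annotated exon, its mean over the 4 libraries was 893 normalized counts in the Ascl5Mut/Mut table, where Lyz2 followed with 186. In the Ascl5Mut/WT table it was 1033, where Tagln followed with 236.

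S100b had 2094 and 1572 normalized counts in Ascl5WT/WT against 701 and 933 in Ascl5Mut/Mut, or 1833 ± 369 against 817 ± 164 (SD, n = 2 each). The difference of -1.06 on the log2 scale (SE 0.78) did not pass (limma adjusted p = 0.624). In the Ascl5Mut/WT table it had 2133 and 1637 against 759 and 1603, or 1885 ± 350 against 1181 ± 597 (SD, n = 2 each; log2 difference -0.69, SE 0.71, limma adjusted p = 0.772). All 4 mutant libraries lay below the controls, and Ascl5Mut/WT replicate 2 missed the lower control by little. Its reads were about 19 and 13 per control library and 5 to 12 per mutant library.

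Genes closer to Schwann cell identity were at or near 0 in the controls and in Ascl5Mut/WT, and some reached a few reads in single Ascl5Mut/Mut libraries. Sox10, the neural crest transcription factor, had 104.8 and 0 in Ascl5WT/WT against 137 and 864 in Ascl5Mut/Mut, and was at 0 in both Ascl5Mut/WT libraries. Erbb3, the receptor for the axonal growth factor neuregulin, had 420 in Ascl5Mut/Mut replicate 1 alone. Mbp, a myelin protein, had 560 in Ascl5Mut/Mut replicate 1 and 137 in Ascl5Mut/WT replicate 2. Foxd3, an early neural crest factor, was at 0 in all 6. So in the controls and in Ascl5Mut/WT the level summed under Schwann cells was mostly that of S100b, and the defining genes Sox10, Erbb3 and Foxd3 were at or near 0 in the controls.

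A second list of 16 Schwann and glial genes had 2855 and 3540 in Ascl5WT/WT against 10702 and 3902 in Ascl5Mut/Mut, with most of the higher sum in replicate 1. It overlapped in Ascl5Mut/WT (2899 and 3677 against 3272 and 2915). Its Cnp, an enzyme of myelinating glia found in other cells too, had 1760 and 1645 against 3183 and 1671 in Ascl5Mut/Mut (limma adjusted p = 0.83) and a log2 fold change of -0.03 in Ascl5Mut/WT (limma adjusted p = 0.994). Melanocyte genes, which share Sox10, summed to 661 and 959 in Ascl5WT/WT, about 6.08 and 7.99 estimated reads, and to 0 in both Ascl5Mut/Mut libraries. In the other table they overlapped, with 670 and 1025 against 510 and 1081 in Ascl5Mut/WT. Of this list, Dct, Tyr, Tyrp1 and Mlana were at 0 in all 6 libraries. Neuron genes had 993 and 2699 against 1130 and 407.

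**Figure D4:**
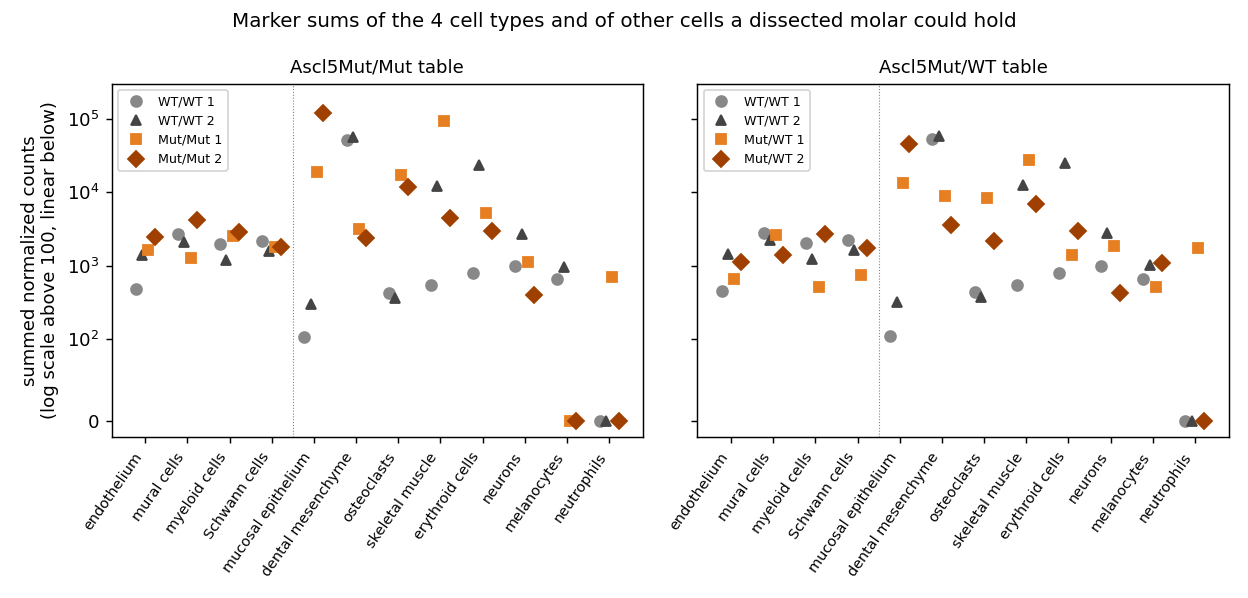
Summed normalized counts (y axis, log scale above 100 and linear below) of the markers of the 4 cell types, left of the dotted line, and of other cells a dissected molar could hold, right of it, one point per library. Mucosal epithelium and osteoclast sums are higher, and dental mesenchyme sums lower, in every mutant library than in its controls, and these and the muscle and erythroid sums span a wider range than those of the 4 cell types. Dlx1 makes up most of the dental mesenchyme sums of the controls.

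Counted over the whole set, 4 of the 35 markers (Pecam1, Kdr, Csf1r and Sox10) were above both controls in each Ascl5Mut/Mut library, and 2 (Rgs5 and S100b) were lower in both. Of all 12731 genes above 0 in at least 1 library of that table, 13.3% were higher in this way and 13.5% lower. For Ascl5Mut/WT, 5 markers were higher in both libraries (Kdr, Tek, Acta2, Tagln and Lyz2) and 3 were lower (Cdh5, Rgs5 and S100b). There the background over 12644 genes was 14.5% higher and 11.8% lower. On the same base, 25 of the 35 markers were above 0 in the Ascl5Mut/Mut table, of which 16% were higher and 8.0% lower, and 23 in the Ascl5Mut/WT table, of which 21.7% were higher and 13.0% lower.

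In the fit across all genes, limma with a minimum mean of 1000, 1 of the 35 markers was tested in each comparison and 0 were called, also at an unadjusted p under 0.05. Over all genes, 0.856% of 2336 were called in Ascl5Mut/Mut and 0.549% of 2370 in Ascl5Mut/WT. With the minimum lowered to 300, 7 markers were tested in Ascl5Mut/Mut and 6 in Ascl5Mut/WT, and 0 were called, with 1 (Csf1r) and 0 at an unadjusted p under 0.05. The background was then 0.07% of 5714 and 0.374% of 5612 genes. The 7 were Cdh5, Pecam1, Cspg4, Rgs5, Csf1r, Ptprc and S100b, and the 6 were Eng, Tagln, Cspg4, Rgs5, Ptprc and S100b. Pecam1 and Csf1r in Ascl5Mut/Mut, and Tagln in Ascl5Mut/WT, passed this minimum only through the mutant libraries (control means 0, 238 and 286). Rgs5 in both, Ptprc in Ascl5Mut/Mut and Eng in Ascl5Mut/WT passed it only through the controls. Directions of these genes were therefore favoured by the filter. At this depth a difference in most of these markers was not detectable, which does not show that it was absent.

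Erythroid genes, a sign of blood held in the sample, also differed between the controls. Their sum over the 7 listed genes present was 787 and 23656 in Ascl5WT/WT, against 5224 and 3006 in Ascl5Mut/Mut. The control with more erythroid RNA, replicate 2, was also the one with the higher sum of the 12 endothelial genes, while in the second endothelial list replicate 1 was the higher (3511 against 2050). The part of blood content in the endothelial sums was not tested.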

How the data were processed

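RNA of maxillary first molars was measured in 6 libraries, made from total RNA with a stranded kit, per the labels' protocols. The deposited values are gene counts normalized by the authors, a linear signal, in 2 tables of 24972 genes, each with the 2 Ascl5WT/WT libraries and 1 mutant genotype. Per the submitters' processing notes they used mm10 and DESeq2, and no version is given. Which aligner, annotation and strand setting they used is not stated in the sources used here. Of the values up to 5 steps of 1 read, 83.9% to 93.4% were within 0.1 of a whole multiple, depending on the library. Whole reads were therefore not recovered and count models were not used. Between the tables, 88.5% and 87.7% of genes kept within 2% of the median ratio of the same Ascl5WT/WT library, so for the rest the scaling differed by gene.

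Genes with a mean of at least 1000 over a table's 4 libraries were fitted with limma 3.58.1 (R 4.3.3, intensity trend, two-sided) on log2(normalized count + 120). Such fold changes understate those of low genes. Benjamini-Hochberg adjusted p-values under 0.05 over all genes tested counted as a call. The fit was also run on simulated counts with a preset spread between libraries. That spread was not taken from these libraries, so the run does not show how the fit performs here. Exon lengths and opposite-strand overlaps came from GENCODE M21 (GRCm38). All 35 markers are accounted for. From each further list at most the 2 tested genes with the largest absolute fold change per comparison are named. Exceptions are genes at 0, and Hmgxb3, Vegfa, Dlx1, Ctsk, odontoblast genes and mucosal genes, chosen after their values were seen. The markers and lists were chosen with earlier results of these data known. Alternatives were the pseudocount, the filter, the scaling, a replicate term and leaving out each library.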

Additional observations from a re-analysis of the deposited data

How the results depend on the processing

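In every setting run, 0 markers were called by limma in either comparison, with at most 1 (Ascl5Mut/Mut) and 3 (Ascl5Mut/WT) at an unadjusted p under 0.05. S100b stayed negative and uncalled in all, from -1.25 to -0.86 (Ascl5Mut/Mut) and -1.18 to -0.21 (Ascl5Mut/WT) on the log2 scale without 1 library. The number of genes called, 20 and 13, changed more. With a pseudocount of 1 it was 4 and 8, and with a pseudocount of 1 and a minimum mean of 10 it was 0 in both, with 1280 and 1055 genes at an unadjusted p under 0.05. With a minimum mean of 300 it was 4 and 21. With no filter it was 1 for Ascl5Mut/Mut. Without 1 library it ran from 0 to 74 and from 0 to 66. A replicate block gave 36 and 37 calls. Deviations of same-numbered libraries correlated at -0.01 and 0.02. The labels do not say what same-numbered libraries share, and these correlations cannot decide it.

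The log2 ratio of the summed markers moved as follows. In Ascl5Mut/Mut it was 1.13 for endothelium (0.55 to 2.12 without 1 library), 0.16 for mural cells (-0.95 to 0.78), 0.76 for myeloid cells (0.45 to 1.16) and -0.06 for Schwann cells (-0.28 to 0.20). In Ascl5Mut/WT it was -0.10 (-0.70 to 0.96), -0.31 (-0.85 to 0.082), -0.02 (-1.69 to 0.73) and -0.63 (-1.35 to -0.16). Without the highest member it was -0.15 for mural cells (Cspg4), -0.39 for myeloid cells (Csf1r) and 4.24 for Schwann cells (S100b) in Ascl5Mut/Mut. In Ascl5Mut/WT it was 0.70 for endothelium (Eng), 0.46 for myeloid cells (Ptprc) and 0.31 for Schwann cells (S100b). Leaving out members that overlap a gene on the opposite strand gave -0.39 for myeloid cells in Ascl5Mut/Mut and 0.70 for endothelium in Ascl5Mut/WT. The mean log2 value over members gave differences of 0.36 for endothelium, 0.25 for myeloid and 0.58 for Schwann cells in Ascl5Mut/Mut, and 0.082 for endothelium and 0.18 for myeloid cells in Ascl5Mut/WT. Of the 8 sums, the endothelial one in Ascl5Mut/Mut alone kept its sign in all 8 alternatives. A few reads per marker set the limit, and the causes of these moves were not tested.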
